A study of Homo sapiens with 2 samples.

Results

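Long non-coding RNAs (lncRNAs) of 3 naming families were compared between HEK293T cells that expressed IRX1::GFP and cells that expressed GFP alone: the LINC genes, the host genes of small nucleolar RNAs (SNHG genes) and the host genes of microRNAs. HAR1A, MALAT1, NEAT1, GAS5, MEG3, DANCR and TUG1 were added by name. A gene was selected on its symbol in the platform annotation and on its signal, because its brightest probe set had to reach the median over all probe sets as the mean of the 2 arrays. Of 892 such genes with a probe set of their own on the array, 139 passed, out of 12197 genes of any kind that passed and 19775 on the array. The 139 genes were 121 LINC genes, 8 microRNA hosts, 7 snoRNA hosts (GAS5 and DANCR among them), HAR1A, MALAT1 and TUG1. HEK293T cells derive from human embryonic kidney and express the SV40 large T antigen. They were transfected with the pcDNA3.1-IRX1::GFP plasmid, or with pcDNA3.1-GFP as mock control, by means of polyethylenimine, and GFP-positive cells were sorted by FACS after 48 h. IRX1 is a homeobox transcription factor of the Iroquois family, and both groups are transient transfections in 1 cell line, so the transgene was driven by the plasmid and not by the cells' own locus. Total RNA of each condition was hybridised to 1 Affymetrix HG-U133 Plus 2.0 array, while the study's figure legend gives n = 3, and whether each array is 1 replicate or a pool was not settled.

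A lncRNA is transcribed and often spliced like a messenger RNA, but is not translated into a known protein. Host genes carry small RNAs in their introns or exons. The snoRNAs of an SNHG gene are cut out of its introns and guide the chemical modification of ribosomal RNA, while the spliced remainder is often degraded by nonsense-mediated decay. A microRNA host is the primary transcript from which a hairpin is cut, and the mature microRNA then represses messenger RNAs that pair with its seed. LINC symbols are serial names for intergenic lncRNAs, and for most of them no function is established.

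The microRNAs of the host genes that were higher with IRX1::GFP are shown to identify what these hosts carry, since the array measured the host transcripts and not the mature microRNAs. Mature sequences were taken from RefSeq (GRCh38.p14), with the seed, bases 2 to 8, in capitals. MIR7-3HG carries hsa-miR-7-5p at chr19:4770700-4770723 on the plus strand, and MIR9-1HG carries hsa-miR-9-5p at chr1:156420392-156420414 and hsa-miR-9-3p at chr1:156420354-156420375, both on the minus strand.
hsa-miR-7-5p: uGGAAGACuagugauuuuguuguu
hsa-miR-9-5p: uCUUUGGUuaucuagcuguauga
hsa-miR-9-3p: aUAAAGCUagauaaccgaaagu
The 3 seeds differ from one another. In the RefSeq table the same mature miR-7-5p is also annotated at MIR7-1, and both arms of miR-9 at MIR9-2 and MIR9-3. All 8 microRNA hosts that passed had their microRNA in the table.

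Many snoRNA host genes begin with a terminal oligopyrimidine tract, a C followed by an unbroken run of C and T that also starts ribosomal protein messenger RNAs. A start was counted here when the annotated first base was a C and the run held at least 5 pyrimidines. This was so for 3 of the 7 snoRNA hosts, SNHG19, SNHG32 and SNHG4, against 5.14% of 27305 genes in the RefSeq promoter table, 4 of 93 LINC genes and 44 of 65 ribosomal protein genes. The 3 starts are printed from 30 bases before the annotated start, with the run in capitals. SNHG19 lies at chr16:2155329-2155388 on the minus strand, SNHG32 at chr6:31834886-31834945 on the plus strand, and SNHG4 at chr5:139274071-139274130 on the plus strand.
SNHG19: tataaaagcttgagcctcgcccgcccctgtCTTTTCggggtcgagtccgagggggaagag
SNHG32: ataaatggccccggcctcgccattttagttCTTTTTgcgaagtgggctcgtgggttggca
SNHG4: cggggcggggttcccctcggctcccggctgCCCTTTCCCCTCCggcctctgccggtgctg
These are starts as annotated, and a host without such a run in this table may start elsewhere in these cells. The 3 genes with the run did not move together, as their signals show further on.

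Signals were deposited as MAS5 intensities, which are linear and had a trimmed mean of 1000 on both arrays, with a median over all probe sets of 195 with IRX1::GFP and 171 in the GFP control. Changes are log2 ratios in which IRX1::GFP is divided by the GFP control, and a difference of 2-fold was needed to count a gene as higher or lower. Since each condition had a single array, there is no replicate error and no p-value, and precision is limited by the number of arrays. What could be measured was the spread among probe sets of one gene, with an SD in log2 units of 0.49 for 5933 genes and of 0.52 for the 33 lncRNA genes that had several probe sets past the limit. As background served the 90th percentile over probe sets of olfactory receptor genes (107 probe sets), which was 179 with IRX1::GFP and 143 in the GFP control, and a fold with 1 signal not above it is given as a lower bound. The single IRX1 probe set read 57 with IRX1::GFP and 33.1 in the GFP control, neither above background, so it does not check the labels. The 3′ to 5′ signal ratio of ACTB, a measure of RNA integrity, was 1.64 with IRX1::GFP and 3.23 in the GFP control, and that of GAPDH was 1.01 and 1.22. The part of RNA integrity in the results was not tested. Of 8 markers of HEK293T cells, 8 were above background with IRX1::GFP and 6 in the GFP control. Of 8 markers of blood, liver, fibroblast and endothelial cells, 2 were above background with IRX1::GFP and 6 in the GFP control, with sums of 1740 and 1473, the highest being CD14 at 856 with IRX1::GFP and 327 in the GFP control. COL1A2, at 169 with IRX1::GFP and 175 in the GFP control, passed only the lower background of the control. ALB at 219, DCN at 184 and CD3E at 244 also passed in the control, so a signal a little above background is weak evidence of expression. In bulk RNA, fewer cells of a type and less RNA per cell cannot be told apart.

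Past the limit on the mean signal, more lncRNA genes were upregulated than downregulated with IRX1::GFP. Of the 139 genes, 24 (17.3%) were at least 2-fold higher, where 10.4% of all 12197 genes were, and 7 (5.04%) were at least 2-fold lower, where 5.34% of all genes were. The median log2 ratio was 0.23 over the lncRNA genes (quartiles -0.29 and 0.61) and 0.07 over all genes (quartiles -0.36 and 0.52). At 4-fold, HAR1A, MIR7-3HG, LINC00304 and LINC00424 were higher, 4 of 139 where the share of all genes was 1.6%, and LINC03027 and LINC00632 were lower, 2 of 139 where it was 0.533%. These counts use measured ratios, and with dim signals set to background LINC00424 was bounded at 3.52-fold, short of 4-fold. The remaining 108 genes lay within 2-fold. A larger share of higher calls was also seen among 568 lncRNA genes outside the 3 families, 16.4% higher and 6.34% lower, against 9.93% and 5.32% of 11264 protein-coding genes. Since the genes were selected on the mean of both signals, a gene that was dim in 1 condition passed through the other and had to differ. With the limit raised to the 75th percentile of signal, 29 lncRNA genes were left, with 2 higher (6.9%), 1 lower (3.45%) and a median of -0.12, where 6.68% and 5.41% of all 7678 genes past it were higher and lower. With a gene kept when either signal was above background, 34 of 206 lncRNA genes were higher (16.5%) and 27 were lower (13.1%), where 12.1% and 6.88% of all genes were, so that the excess of higher over lower genes depended on the filter. The counts are descriptions of the 2 arrays and carry no test.

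**Figure D1:**
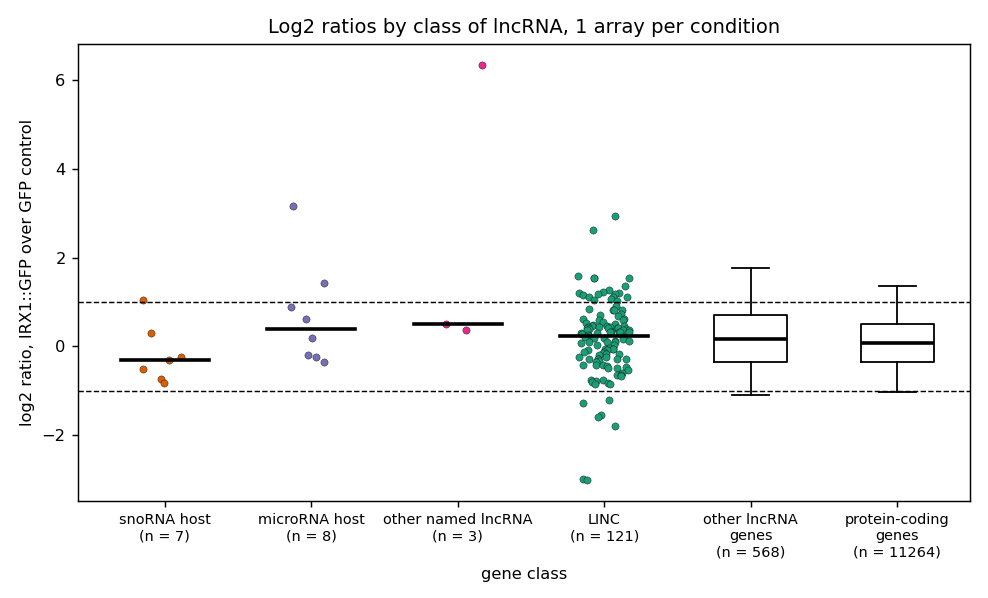
Log2 ratio (y axis, IRX1::GFP over GFP control) of each lncRNA gene past the limit by class (x axis), with the class median as a bar, and boxes (quartiles, whiskers from the 5th to the 95th percentile) for other lncRNA genes and protein-coding genes. Dashed lines mark 2-fold. The median of the 7 snoRNA hosts is below 0 at -0.32, and that of the 121 LINC genes is 0.23.

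Among the 7 snoRNA hosts, SNHG19 was the 1 gene that passed 2-fold, upward, where 10.4% of all genes were higher and 5.34% lower. Of the 7, 5 had a log2 ratio below 0, with a median of -0.32, which was 0.10 when no limit on signal was set. SNHG19, the host of SNORD60, had a signal of 28694 with IRX1::GFP and 13869 in the GFP control, a log2 ratio of 1.05. Its probe set carries a suffix for probes that can bind other transcripts, and the ratio passed 2-fold by a narrow margin that was lost under median centring of the arrays and under quantile normalization. SNHG32, the host of SNORD48 and SNORD52, had 18729 with IRX1::GFP and 22089 in the GFP control. SNHG17, which hosts snoRNAs of the SNORA71 family, had 16664 with IRX1::GFP and 20788 in the GFP control, and its dimmer probe set 11563 and 12866. Both hosts were therefore close to equal on the 2 arrays.

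GAS5, whose introns carry several box C/D snoRNAs and whose spliced RNA can bind the glucocorticoid receptor, had a signal of 834 with IRX1::GFP and 1186 in the GFP control on its only probe set named for it alone. DANCR, which was described as an RNA that holds progenitor cells undifferentiated, had 13962 with IRX1::GFP and 11340 in the GFP control, a log2 ratio of 0.30. SNHG4, the host of SNORA74A, had 151 with IRX1::GFP, which was not above background, and 251 in the GFP control. SNHG33 showed the largest difference below 0 among the snoRNA hosts, with 2849 with IRX1::GFP and 5012 in the GFP control. Its second probe set read 1513 and 2711 in the same order, so both gave nearly one ratio, -0.82 and -0.84.

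Of the 8 microRNA hosts, 2 were upregulated with IRX1::GFP and 0 were downregulated, where 10.4% and 5.34% of all genes were. Their median log2 ratio of 0.39 turned negative (-0.35) with a filter at the 75th percentile of signal and (-0.19) with a filter on the olfactory receptor level. MIR7-3HG, which was first described as a transcript of the pituitary gland, had 1468 with IRX1::GFP and 163 in the GFP control, a 9-fold difference. That probe set carries a suffix for probes shared between transcripts, and its control signal stood close to the background of 143. The second MIR7-3HG probe set, below the limit, read 118 with IRX1::GFP and 18.3 in the GFP control, neither of them above background. MIR9-1HG carries miR-9, a microRNA of neural progenitors, and had 792 with IRX1::GFP and 293 in the GFP control, a 2.7-fold difference. Its second probe set past the limit read 360 with IRX1::GFP and 215 in the GFP control, a smaller difference of 0.74 on the log2 scale, and a dimmer one read 331 and 29.9. All 3 pointed the same way. The host of another miR-9 copy, MIR9-3HG, did not reach the limit, with 40 and 15.4 in the same order.

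The other 6 microRNA hosts lay within 2-fold. MIR570HG had 1055 with IRX1::GFP and 573 in the GFP control, but its dimmer probe set had 149 and 279, and the sign of the ratio depended on the probe set (0.88 and -0.91). MIR3945HG had 390 with IRX1::GFP and 256 in the GFP control, and MIR3936HG had 263 and 233. MIR1915HG had 596 with IRX1::GFP and 679 in the GFP control, while another probe set read 170 and 401 and the third 202 and 207. This was again a case in which probe sets of one host differed in size. MIR924HG had 303 with IRX1::GFP and 355 in the GFP control. MIR550A3HG had 894 with IRX1::GFP and 1138 in the GFP control.

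HAR1A is transcribed from a region that changed rapidly in the human lineage and is expressed in the developing human neocortex. Its signal was 1169 with IRX1::GFP and 14.3 in the GFP control, at least 8.16-fold higher when the control is set to background, so the ratio has no exact size and no rank against the measured 9-fold of MIR7-3HG. HAR1A had 1 probe set, which carries a suffix for probes shared between transcripts, so no second probe set could be set beside it. Its neighbours in the genome that passed the limit were equal on the 2 arrays to within 0.15 on the log2 scale, with YTHDF1 at 6531 with IRX1::GFP and 7046 in the GFP control and GID8 at 6487 and 5848.

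MALAT1, a nuclear RNA that gathers in the speckles where splicing factors are stored, had 55517 with IRX1::GFP and 38942 in the GFP control, a log2 ratio of 0.51. It was measured by 12 probe sets, all 12 above 0, with log2 ratios of 0.44 to 1.58. The largest ratio came from the only one without a suffix for shared probes, at 3011 with IRX1::GFP and 1008 in the GFP control. The probe sets therefore shared a direction and differed in size. TUG1, described as a broadly expressed lncRNA that is needed for photoreceptors in mouse, is annotated as protein-coding in RefSeq and was also counted among the protein-coding genes. It had 17632 with IRX1::GFP and 13691 in the GFP control, with 4 of 5 probe sets past the limit above 0 and a range of -0.02 to 0.63, and a sixth, below the limit, at 124 and 167. MEG3, an imprinted lncRNA, fell below the limit with a mean signal of 162. NEAT1, the RNA scaffold of paraspeckles, had no probe set named for it alone and was not analysed here as a single gene.

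**Figure D2:**
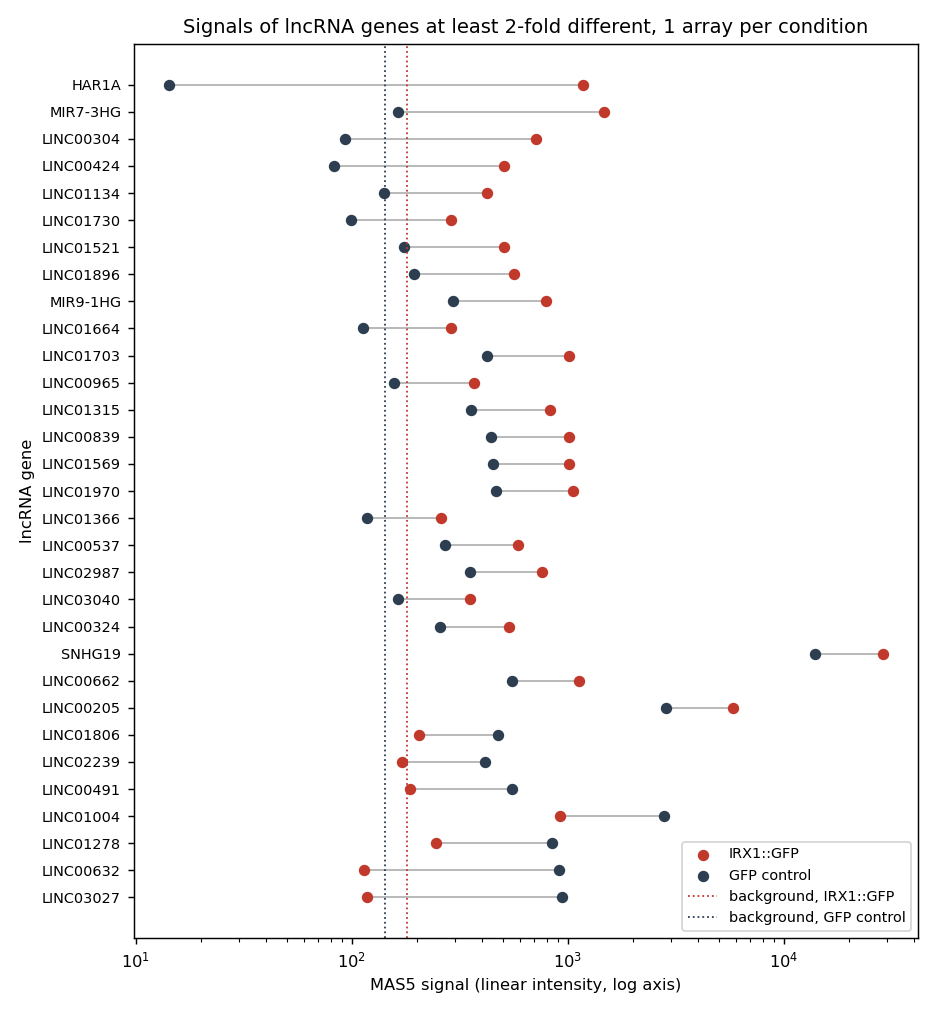
MAS5 signals (x axis, linear intensity on a log scale) of the 31 lncRNA genes at least 2-fold different, ordered by ratio, with IRX1::GFP in red and GFP control in dark blue, 1 array each. Dotted lines are the background of each array, and 7 of the 24 higher genes have a GFP control signal that is not above it.

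The LINC genes, 121 of the 139, gave 20 of the 24 higher genes and all 7 lower genes. Of the LINC genes 16.5% were higher and 5.79% lower, where 10.4% and 5.34% of all genes were. LINC00304 had 715 with IRX1::GFP and 93 in the GFP control, at least 4.99-fold higher. Its 2 other probe sets read 361 and 195, and 168 and 28.4, in the same order. All 3 had a higher signal with IRX1::GFP, but neither signal of the dimmest was above background. LINC00424 had 505 with IRX1::GFP and 82.4 in the GFP control, at least 3.52-fold higher. LINC01134 had 422 with IRX1::GFP and 141 in the GFP control, but its second probe set read 171 and 234, the opposite sign. The call on LINC01134 therefore rests on its brighter probe set.

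Another 6 higher LINC genes had a control signal that was not above background or stood close to it. LINC01521 had 507 with IRX1::GFP and 174 in the GFP control, a log2 ratio of 1.54. LINC00965 had 366 with IRX1::GFP and 157 in the GFP control, and LINC03040 had 352 and 164. The control signals of these 3 genes were above background, while those of the next 3 were not. LINC01730 had 288 with IRX1::GFP and 99.1 in the GFP control, and LINC01664 had 289 and 112, each at least 2.01-fold higher. LINC01366 had 259 with IRX1::GFP and 117 in the GFP control, and its bound against background was only 1.8-fold. The second LINC01366 probe set, below the limit, read 116 and 118 in the same order, neither of them above background. With all dim signals set to a floor of 182, LINC01730, LINC01664, LINC01366 and LINC03040 fell below 2-fold, with log2 ratios of 0.66, 0.66, 0.50 and 0.95. For these genes the size of the difference depends on what a dim signal is taken to be.

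A second set of LINC genes was clearly above background on both arrays. LINC01896 had 562 with IRX1::GFP and 194 in the GFP control, a log2 ratio of 1.53. LINC01703 had 1008 with IRX1::GFP and 421 in the GFP control, a 2.4-fold difference. LINC00839 had 1017 with IRX1::GFP and 442 in the GFP control. Signals of this size were also seen for LINC01569 (1016 with IRX1::GFP and 448 in the GFP control) and LINC01970 (1053 and 466), with log2 ratios of 1.18 for both. LINC01315 had 823 with IRX1::GFP and 357 in the GFP control.

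The remaining higher LINC genes had log2 ratios of 1.03 to 1.12, and LINC00324, LINC00662 and LINC03040 fell below it under each of the 3 other scalings tried. LINC00324 had 532 with IRX1::GFP and 255 in the GFP control, a log2 ratio of 1.06. LINC00537 had 588 with IRX1::GFP and 271 in the GFP control, and its 2 other probe sets read 365 and 251, and 325 and 67, all higher with IRX1::GFP. LINC00662 and LINC02987 are next to each other among the genes past the limit, and both were higher. LINC00662 had 1131 with IRX1::GFP and 550 in the GFP control, but 1 of its other probe sets read 291 and 420. LINC02987 had 762 with IRX1::GFP and 351 in the GFP control, and 377 and 368 on its second probe set, which was equal on the 2 arrays.

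LINC00205 was the LINC gene with the most probe sets past the limit. Its brightest read 5824 with IRX1::GFP and 2849 in the GFP control, a log2 ratio of 1.03. All 5 probe sets past the limit were higher with IRX1::GFP, with log2 ratios of 0.98 to 1.24, and the next brightest read 4508 and 1950 in the same order. This gene stood close to the 2-fold line, and median centring of the arrays took it below.

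Of the 7 lower LINC genes, 2 were at least 5-fold lower with signals that were not above background with IRX1::GFP. LINC03027 had 117 with IRX1::GFP and 940 in the GFP control, at least 5.26-fold lower. Its second probe set was below the limit and read 140 and 113. LINC00632 had 114 with IRX1::GFP and 911 in the GFP control, at least 5.1-fold lower, on its only probe set. The LINC00632 locus is the source of the circular RNA CDR1as, which carries many sites for miR-7, but the circle itself was not matched to a probe set and no value is given for it. LINC02239 had 170 with IRX1::GFP and 414 in the GFP control, at least 2.32-fold lower.

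The other lower LINC genes were above background on both arrays. LINC01278 had 246 with IRX1::GFP and 848 in the GFP control, a 3.45-fold difference, on a probe set with a suffix for shared probes. Its other probe set, below the limit, read 76.5 and 104 in the same order, neither of them above background. LINC01004 had 924 with IRX1::GFP and 2795 in the GFP control, 3.02-fold. Among the lower genes LINC01004 was the only one with a mean signal over 1000. LINC00491 had 186 with IRX1::GFP and 549 in the GFP control, and its 2 dimmer probe sets read 141 and 579, and 47.9 and 237, all lower with IRX1::GFP. LINC01806 had 204 with IRX1::GFP and 475 in the GFP control, and 139 and 284 on its second probe set. Of the lower genes, LINC00491 and LINC01806 were those with a second probe set past the limit. In both it was also at least 2-fold lower by measured ratio. The IRX1::GFP signals of these second probe sets, 141 and 139, were not above background, so the ratios have no exact size.

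The 94 LINC genes within 2-fold had log2 ratios of -0.86 to 0.92, and they included most of those with bright probe sets. LINC01003 had 10765 with IRX1::GFP and 8631 in the GFP control, and LINC02381 had 7730 and 6370. LINC00938 had 3525 with IRX1::GFP and 6320 in the GFP control, and its dimmer probe sets read 297 and 617, and 99.8 and 314, so that all 3 were below 0. The brightest LINC00938 probe set stayed within 2-fold at -0.84, while both others passed it by measured ratio. The IRX1::GFP signal of the dimmest of these, 99.8, was not above background. LINC00674 had 2756 with IRX1::GFP and 3376 in the GFP control, and LINC00621 had 2101 and 2858. LINC00115 had 2616 with IRX1::GFP and 2773 in the GFP control, and LINC00475 had 2591 and 2761, both nearly equal. At the limit itself, LINC02709 (186 with IRX1::GFP and 181 in the GFP control) and LINC00260 (165 and 202) were just inside, and LINC00896 (205 and 158) and LINC01741 (295 and 61) were just outside.

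**Figure D3:**
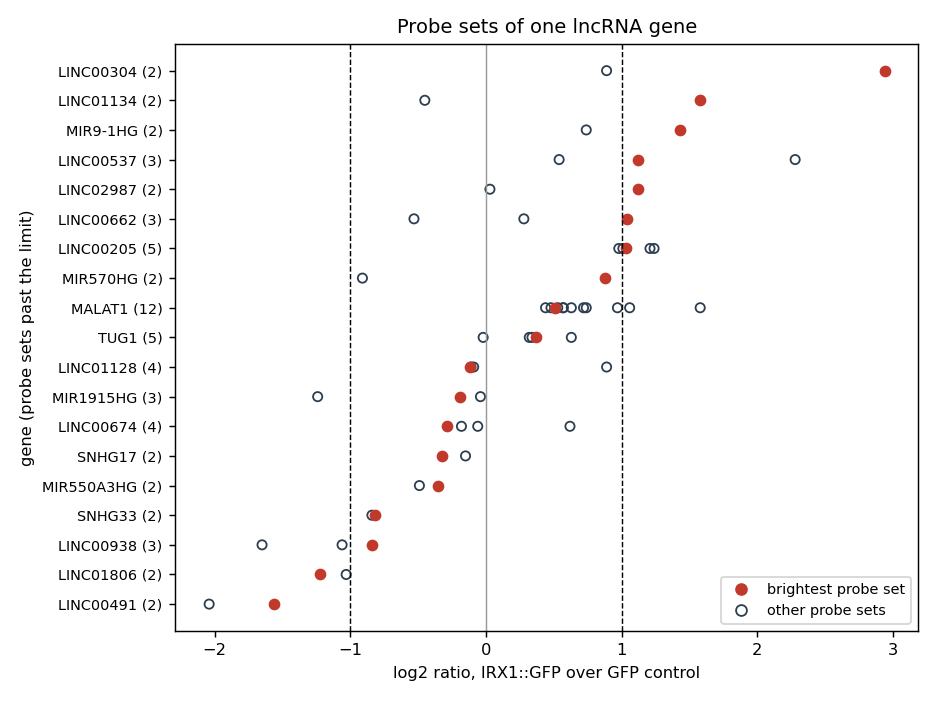
Log2 ratios (x axis) of the probe sets past the limit for lncRNA genes with several of them, with the number in parentheses, the brightest probe set filled and the others open. All 12 probe sets of MALAT1 and all 5 of LINC00205 lie above 0, while those of LINC00662, LINC01134 and MIR570HG lie on both sides of it.

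Probe sets that had not been used to choose the genes gave a second reading. Over 33 lncRNA genes there were 60 such probe sets past the limit, and 44 had the sign of the chosen one, against 7591 of 10452 over all 5933 genes with several. Genes with many probe sets weigh more in these counts, such as MALAT1, with 12 past the limit and all 12 above 0. For the higher lncRNA genes 10 of 12 further probe sets were above 0 and 4 of 12 passed 2-fold, against 518 and 265 of 598 over all genes at least 2-fold higher. The 4 were LINC00205 at log2 ratios of 1.21, 1.24 and 1.01 and LINC00537 at 2.28, so they came mainly from 1 gene. For the lower lncRNA genes 2 of 2 were below 0 and passed 2-fold, against 654 and 320 of 709 over all genes at least 2-fold lower. Both of these lower probe sets had an IRX1::GFP signal that was not above background, so they passed by measured ratio only. Probe sets of one gene share its RNA and its array, so they bear on the measurement of a gene and not on differences between cultures.

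The signal range of the genes moved with the share of calls. The median of the mean signals was 383 over the 139 genes and 1519 over all genes. Between the limit and 400, 10 of 72 lncRNA genes were higher (13.9%) where 18.1% of all genes were. Between 400 and 1000, 12 of 39 were higher (30.8%) where 14.9% of all genes were, and 3 of 39 were lower (7.69%) where 4.76% were. Between 1000 and 4000, 0 of 18 were higher where 8.11% of all genes were, and LINC01004 was lower. At 4000 and above, SNHG19 and LINC00205 made 2 of 10 (20%) where 4.27% of all genes were higher. The higher lncRNA genes were therefore most frequent in a middle range of signal, and the part of dim signals in these counts was not tested beyond the following. With both signals above background, 17 of 120 lncRNA genes were higher (14.2%) and 4 were lower (3.33%), where 8.65% and 4.64% of all genes were.

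**Figure D4:**
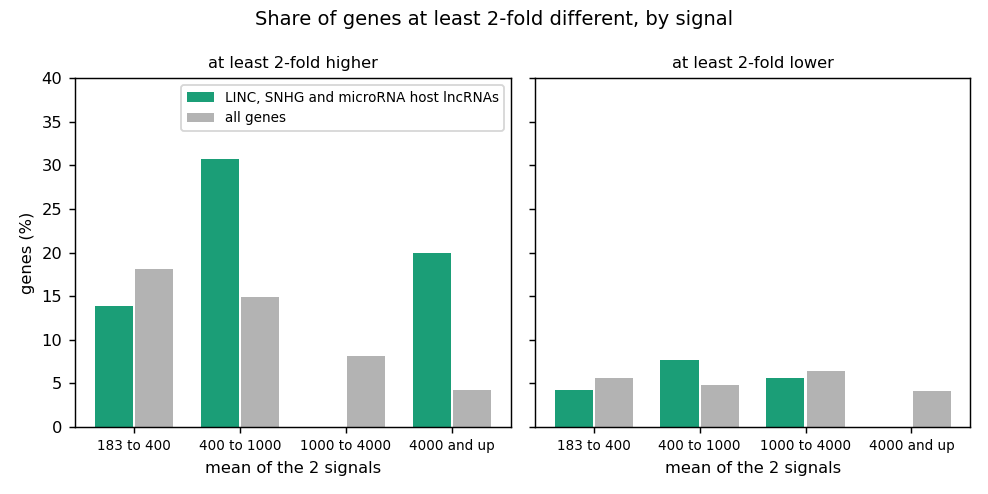
Share of genes (y axis, percent) at least 2-fold higher (left) and lower (right) with IRX1::GFP in 4 ranges of the mean of the 2 signals, for the lncRNA genes in green and all genes in grey. The green bar of the higher genes stands at 30.8% between 400 and 1000 and at 0 between 1000 and 4000.

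**Figure D5:**
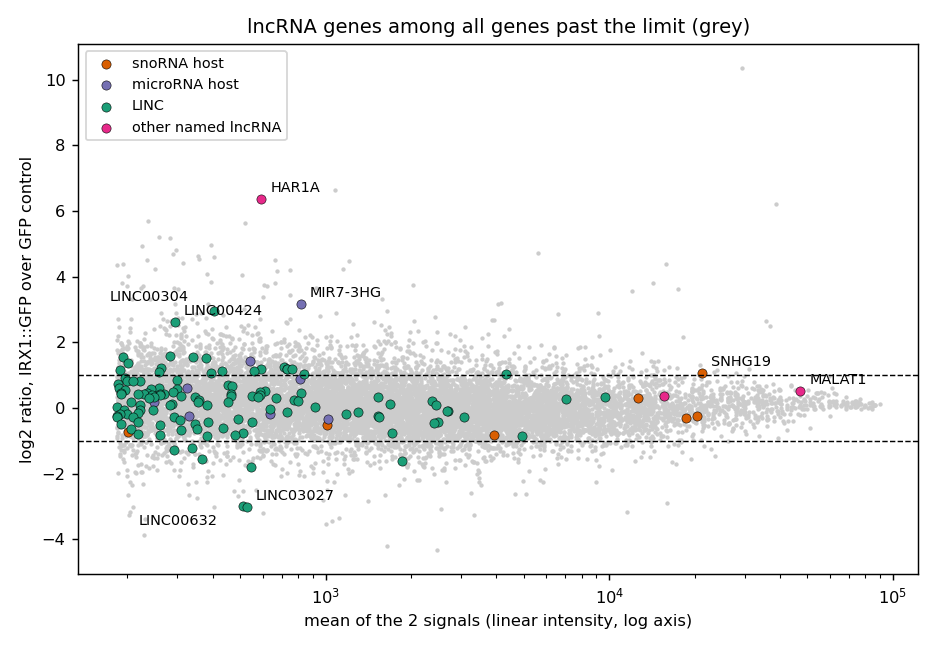
Log2 ratio (y axis, IRX1::GFP over GFP control) against the mean of the 2 signals (x axis, log scale) for all 12197 genes in grey and the 139 lncRNA genes coloured by class, with dashed lines at 2-fold. HAR1A is drawn at its measured ratio of 6.35, although its GFP control signal is not above background and its fold is only bounded at 8.16, and MALAT1 and SNHG19 are at the bright end with 0.51 and 1.05.

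The changed lncRNA genes were set beside their neighbours, the nearest gene past the limit on each side in the RefSeq gene order. Distance was neither limited nor measured, so a neighbour can lie far away, with dimmer genes in between. Of 48 neighbours of the 24 higher lncRNA genes, 8 were higher (16.7%) and 1 was lower, where 17.6% of the neighbours of all higher genes were higher. Among the 8 were LINC00662 and LINC02987, each counted as a neighbour of the other. Pairs among all genes were counted in the same way. Of 14 neighbours of the 7 lower lncRNA genes, 3 were lower (21.4%) and 1 was higher, where 14.3% of the neighbours of all lower genes were lower. Among the pairs, LINC01806 had as a neighbour in this order PSMD14, a subunit of the proteasome lid, at 8308 with IRX1::GFP and 20538 in the GFP control. For LINC02239 a neighbour in this order was the lncRNA PURPL, at 305 with IRX1::GFP and 1710 in the GFP control. LINC01278 had a neighbour in each direction, SPIN4 at 2957 with IRX1::GFP and 7036 in the GFP control and AMER1, a regulator of Wnt signalling, at 438 and 210. A neighbour of MIR9-1HG was MEF2D, a transcription factor of muscle and neurons, at 1321 with IRX1::GFP and 573 in the GFP control. The neighbours of MIR7-3HG were within 2-fold, FEM1A at 2119 with IRX1::GFP and 1724 in the GFP control and DPP9 at 575 and 432. These examples were chosen after their values were seen.

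Windows from 250 bases before to 50 after the annotated start were available for 109 of the 139 genes and were searched on both strands for 3 motifs. ACANNTGT, the palindrome bound by Iroquois proteins, was in 0 of 20 higher, 1 of 4 lower (LINC02239) and 5 of 85 other lncRNA genes, where 6.84% of 27305 genes of the RefSeq table held it in a window. GCGNGGGCG, the EGR motif, was in 2 of 20 higher (LINC01569 and LINC01896), 0 of 4 lower and 4 of 85 other genes, MALAT1 and TUG1 among them, where 11.2% of all genes of the table held it. The heat shock element, built of alternating GAA and TTC units, was in 0 of 20 higher, 0 of 4 lower and 2 of 85 other genes, GAS5 and LINC01620, where 0.608% of all genes of the table held it. A match is a run of letters and not a bound site, and distal sequence was not searched.

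The proteins that process or bind these RNAs mostly lay within 2-fold. Of 16 genes for snoRNP proteins and their assembly, 0 were higher and 1 was lower, with a median log2 ratio of -0.07, and the lower one was NAF1, an assembly factor of box H/ACA snoRNPs, at 1598 with IRX1::GFP and 3937 in the GFP control. Of 12 factors of nonsense-mediated decay, 1 was higher and 0 were lower, with a median of -0.10, and the higher one was SMG8, a regulator of the kinase SMG1, at 20406 with IRX1::GFP and 7561 in the GFP control. Of 15 genes for microRNA processing and Argonaute proteins, 0 were higher and 1 was lower, with a median of -0.39. The lower one was LIN28B, which blocks the maturation of let-7 microRNAs, at 1436 with IRX1::GFP and 8740 in the GFP control. None of 17 paraspeckle genes and none of 16 nuclear speckle genes passed 2-fold, with medians of -0.20 and -0.38. PSPC1, a core paraspeckle protein, had 2934 with IRX1::GFP and 5169 in the GFP control, and CLK1, a kinase of splicing factors in speckles, had 4760 and 9152. Over all genes 10.4% were higher and 5.34% lower, and with 12 to 17 genes a list the counts do not set these lists apart from that share.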

How the data were processed

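RNA of 2 samples, IRX1::GFP and GFP control, was measured on 1 array each. The authors deposited 1 linear intensity per probe set, computed with MAS5 according to the submitters' processing notes (version not given in the sources used here). Names came from the platform annotation, and probe sets with several symbols (1801 of 54675) were not named. Of 139 genes, 138 were found in the RefSeq gene table (GRCh38.p14). Each gene was represented by its probe set of highest mean signal and kept at a mean of 183 or more. No test was made, since each condition had 1 array.

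The genes and lists were chosen with earlier results of these data known. The named genes are all SNHG and microRNA hosts past the limit, the 7 lncRNAs added by name, every LINC gene at least 2-fold different, the 8 LINC genes with the highest mean signal and those nearest to the limit. Of each protein list at most 2 genes were named, those with the largest absolute log2 ratio. Neighbours named as examples, MIR9-3HG, LINC01620 and single marker genes fall outside this rule and were chosen after their values were seen. As alternatives the arrays were scaled by quantile normalization, by median centring or by loess (span 0.3), the filter was omitted, set to the 75th percentile or set by the olfactory receptor signals, and signals were floored at the 50th percentile. Further alternatives were the mean over probe sets, only probe sets without a suffix and updated symbols. The steps were tested on simulated data. Python 3.11.15, numpy 2.4.6, pandas 2.3.3, statsmodels 0.14.6 and matplotlib 3.10.9 were used.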

Additional observations from a re-analysis of the deposited data

Results flagged for a closer look

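Probe sets whose annotation lists several symbols were not used in the comparisons, although 119 of them list at least 1 of these lncRNA names, mostly a host gene beside the small RNA it carries. In 60 of them 1 lncRNA name stood beside only small RNA names. Because of these, 28 genes, 13 SNHG names among them, had no probe set of their own, and NEAT1 was listed on 9 such probe sets and GAS5 on 4 past the limit. Of 46 that list 1 lncRNA name beside small RNA names and passed the limit, 5 passed 2-fold upward and 4 passed it downward with IRX1::GFP, where 9.66% and 5.81% of all 27322 probe sets past the limit did, with a median log2 ratio of 0.11 and a range of -1.71 to 2.33. The 25 of snoRNA hosts held 2 higher and 2 lower with a median of 0.22, whereas the 7 snoRNA hosts with a probe set of their own had a median of -0.32. The 12 of microRNA hosts held 3 higher and 2 lower with a median of -0.28, whereas the 8 with a probe set of their own had a median of 0.39. The difference between the 2 kinds of annotation was not tested.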

How the results depend on the processing

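No paired analysis was possible because there was only 1 array of each kind, and none could be left out. For the 54 named genes, 475 values under the alternatives moved by less than the spread between probe sets, 15 moved further and none changed its sign while called. Many of the 475 could not have moved further. The other filters and updated symbols left a gene's ratio as it was, and median centring moved every ratio by 0.11. The mean over probe sets could not move a gene with 1 probe set, so this count says little about how stable the ratios are. The count of 24 higher genes became 222 with no filter, 2 with the filter at the 75th percentile and 13 where both signals had to reach the limit, a setting chosen after seeing the data. The count of 7 lower genes became 143, 1 and 4 under those 3 settings. With no filter 24.9% of the lncRNA genes were higher and 16% lower, where 17.5% and 10% of all genes were, and where both signals had to reach the limit 12% and 3.7%, where 7.82% and 4.75% were. The filter on the olfactory receptor level gave 34 higher and 27 lower genes. The median over the lncRNA genes (0.23) became 0.12 under median centring, -0.12 with the filter at the 75th percentile and 0.04 with the olfactory receptor filter, and that of the LINC genes (0.23) became 0.12, -0.10 and 0.04. The median of the snoRNA hosts (-0.32) became -0.43 under median centring, 0.10 with no filter and -0.51 with probe sets without a suffix. The median of the microRNA hosts (0.39) became 0.29 under median centring, 0.23 under quantile normalization, 0.24 under loess, 0.14 with no filter, -0.35 with the filter at the 75th percentile, -0.19 with the olfactory receptor filter, 0.08 with the mean over probe sets, and 0.18 both with probe sets without a suffix and where both signals had to reach the limit. Only MIR550A3HG among the microRNA hosts passed the filter at the 75th percentile, so the -0.35 is the value of that gene. The filters change which genes are counted, and beyond that the cause was not tested. Median centring, which moved the median of all probe sets by 0.11, gave 19 higher and 7 lower genes, with 8.59% and 6.97% of all genes, and quantile normalization gave 17 and 8, with 9.12% and 5.78%. Under loess there were 19 and 7, with 9.31% and 5.65%. LINC00324, LINC00662 and LINC03040 fell below 2-fold under all 3 scalings, LINC00537 and LINC01366 under quantile normalization and loess, SNHG19 under median centring and quantile normalization, LINC02987 under quantile normalization and LINC00205 under median centring. With dim signals set to a floor of 182, there were 20 higher and 7 lower genes, and the log2 ratio of HAR1A was 2.68 against 3.01 for MIR7-3HG.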
